A study of Homo sapiens with 14 samples.

Results

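The 26 genes described here encode the enzymes of cholesterol synthesis, the transcription factor SREBP2 with the proteins that control it, and a pair of sterol transport proteins. They were taken as a list of symbols from the first column of the count tables, and the list was chosen with earlier results of these data known. All 26 were found among the 54628 symbols listed, and all 26 passed the filter on low counts and were tested together with the other genes of the table. They fall into 8 genes from acetyl-CoA to farnesyl and geranylgeranyl diphosphate, 3 from squalene to lanosterol, 9 from lanosterol to cholesterol, 4 for SREBP2 and its regulators, and 2 for sterol transport.

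Animal cells make cholesterol from acetyl-CoA through mevalonate and isoprenoid diphosphates, then squalene and lanosterol. When sterols in the endoplasmic reticulum are low, SCAP escorts the precursor of SREBP2 to the Golgi, where it is cleaved, and the released fragment switches on nearly every gene of the pathway. When sterols are high, INSIG1 and INSIG2 hold SCAP back, and since INSIG1 is itself a target, it gives a feedback signal.

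IMR90 is a strain of primary human lung fibroblasts, here from the isolates I79 and I83 at passage 5. WT cells and cells with HMGB2 knockdown (siHMGB2) were untreated. All the other groups had been given inflachromene (ICM), a small molecule used to bring on senescence, at 10 µM for no more than 6 days: ICM alone, and ICM with knockdown of SRRM2, BANF1 or CTCF. Each group had 2 RNA-seq libraries, and the ICM libraries came in 2 pairs, ICM 1 and 2 beside siSRRM2 and siBANF1, and ICM 3 and 4 beside siCTCF. The knockdown groups therefore carry the drug as well, as do their controls, and WT has libraries in the first set only. The cell line field of the last 4 libraries reads IMR91 to IMR94 while their titles read IMR90, and which isolate gave which library is not given in the sources used here. Nothing in the labels says that replicates came from separate cultures, so p-values measure the spread between these libraries, which may be technical.

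Counts assigned to genes ran from 22336161 to 58257456 per library, and a gene of the list had between 175 and 11461 counts in a library. All 9 fibroblast markers were detected in every library, with a summed level of 2046 to 43310 CPM (counts scaled to the total count of each library), while SFTPC, CD3E and TTR were at 0 in all 14 libraries and EPCAM, CDH1, PECAM1, CDH5, PTPRC, ALB and APOA1 no higher than 0.6801 CPM. Among other markers of other cell types, VWF reached 1.627, KDR 8.133 (siHMGB2 1) and CD14 12.95 CPM (ICM 1). KRT18, listed as an epithelial marker, was detected throughout, at 46.06 and 42.74 CPM in WT, 17.72 and 144.3 in ICM 1 and 2, 90.54 and 89.55 in the libraries labelled siSRRM2 and 193.7 and 175.5 in ICM 3 and 4, and its part in the results was not tested. Knockdown was checked on the target: HMGB2 was at 3.178 and 3.522 CPM in siHMGB2 against 27.68 and 28.01 in WT, and CTCF at 71.5 and 22.97 CPM in siCTCF against 94.87 and 91.92 in ICM 3 and 4. ICM 1 and 2 had SRRM2 levels of 237.8 and 112.4 CPM. The siSRRM2-labelled pair had 76.05 and 76.42 CPM of SRRM2 and the siBANF1-labelled pair less, 58.98 and 17.01 CPM. BANF1 was at 34.24 and 33.34 CPM in the siSRRM2-labelled pair and at 16.96 and 36.72 CPM in the siBANF1-labelled pair, against 13.52 and 32.72 CPM in ICM 1 and 2. SRRM2 was thus below both controls in both pairs and BANF1 in neither, which goes against the siBANF1 label. The deposited names of these 4 libraries carry the other knockdown, and every direction below rests on the labels. Replicates were unequally close. With a median chi-square per gene of 0.455 expected from sampling alone, the replicates labelled siSRRM2 differed by 1.112, the closest of 91 pairs of libraries, while ICM 1 and ICM 2 differed by 50.84, ICM 2 and siBANF1 2 by 3.183, and the siCTCF replicates lay near an ICM library each (siCTCF 1 to ICM 3, 2.683; siCTCF 2 to ICM 4, 1.752). ICM 1 stood apart from ICM 2, with CDKN1A, the p21 cell cycle inhibitor, at 1529 CPM against 6974 CPM, where WT had 1186 and 1225 CPM. CDKN1A was at 9957 and 10320 CPM in the siSRRM2-labelled pair, 1520 and 7743 in the siBANF1-labelled pair, and 10800 and 13080 in ICM 3 and 4. Values with and without ICM 1 are therefore given.

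The libraries labelled siSRRM2 held the most transcripts of the list. The 26 genes summed to 2001 and 2033 CPM there, against 574.6 to 1155 CPM in the other 12 libraries, in which WT had 875.5 and 833.4, ICM 1 and 2 had 574.6 and 859.0, and ICM 3 and 4 had 1104 and 1060 CPM. The group labelled siSRRM2 had the highest mean of all 7 groups for 21 of the 26 genes. Both of its libraries lay above all 12 others for 18 of the 26, which was so for 7.28% of all 19126 genes tested, and above all 4 ICM libraries for 19 of the 26, against 12.7% of all genes. The exceptions were PMVK, GGPS1, FDFT1, TM7SF2, SREBF2, SCAP and INSIG2, and LSS lay above the ICM libraries but not above siBANF1 1. ICM 1 was the lowest library for 15 genes. In RNA from whole cultures, more cells with a transcript and more transcript per cell cannot be told apart.

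**Figure D1:**
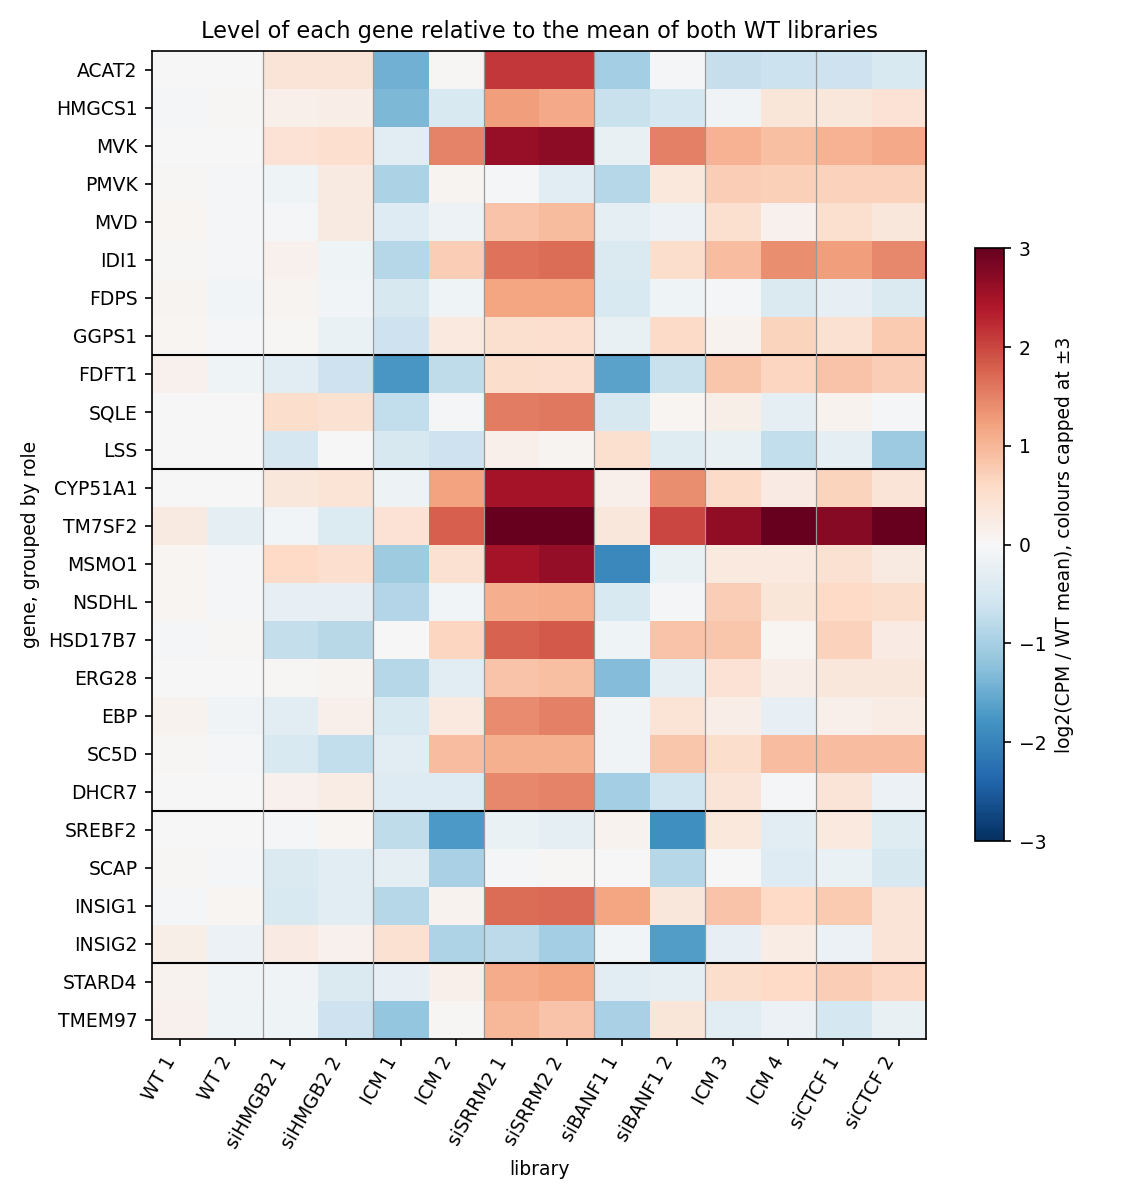
Level of each of the 26 genes (rows, grouped by role from acetyl-CoA at the top to sterol transport at the bottom) in each of the 14 libraries (columns), as log2 of CPM over the mean of both WT libraries; red is higher, blue is lower, and colours are capped at 3. The 2 libraries labelled siSRRM2 are red for most rows, ICM 1 and siBANF1 1 are mostly blue, and ICM 2 resembles siBANF1 2 as ICM 3 and 4 resemble siCTCF 1 and 2.

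Between the siSRRM2-labelled libraries and ICM 1 and 2, 25 of the 26 genes had a fold change above 0 on the log2 scale, and 5 rose past the threshold (edgeR's quasi-likelihood test, adjusted p under 0.05 over all genes tested). The median log2 fold change of the list was 1.5, beside -0.10 for all genes. Of all genes tested, 0.0993% were called higher in this comparison. At an unadjusted p under 0.05 there were 19 of the 26 genes and 11.3% of all genes. The libraries did not overlap for 24 of the 26 genes, all of them higher, against 20.5% of all genes higher and 21.0% lower. In GENCODE v29 (GRCh38) ACAT2 spans chr6:159760328-159779055 on the plus strand, HMGCS1 chr5:43289395-43313512 on the minus strand, FDPS chr1:155308748-155320666 on the plus strand and DHCR7 chr11:71434414-71448435 on the minus strand. The fifth gene called is SQLE.

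The early enzymes make the isoprenoid precursors, and 3 of the 8 rose. ACAT2, the cytosolic thiolase that joins acetyl-CoA units, had 88.39 and 88.1 CPM in these libraries against 7.479 and 20.63 CPM in the controls. These are its highest levels in the series by a wide margin, since no other library passed 26.57 CPM (siHMGB2 2). Its fold change was 6.40 (log2 2.68, SE 0.40, adjusted p = 0.0404). HMGCS1, the synthase that makes HMG-CoA, was at 82.32 and 75.53 CPM against 13.4 and 24.89 CPM (log2 2.06, SE 0.26, adjusted p = 0.0404). FDPS, which makes farnesyl diphosphate, was at 178.8 and 181.0 CPM against 56.33 and 72.79 CPM (log2 1.48, SE 0.23, adjusted p = 0.0425). Both genes were above every other library of the series in both siSRRM2-labelled libraries.

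The other 5 early enzymes were not called. MVK, mevalonate kinase, stood at 32.22 and 33.82 CPM against 4.2 and 14.79 CPM, IDI1, the isomerase of isopentenyl diphosphate, at 150.4 and 155.0 against 26.82 and 80.73 CPM, and MVD, the decarboxylase between them, at 42.96 and 45.85 against 18.11 and 21.22 CPM. For each of these the siSRRM2-labelled libraries were above both controls, and adjusted p ran from 0.0887 to 0.234. GGPS1, which leads away from sterols towards protein prenylation, was at 57.94 and 58.65 CPM, close to the 50.65 CPM of ICM 2 (log2 0.60, SE 0.30). PMVK, phosphomevalonate kinase, did not follow its neighbours in the pathway: at 11.41 and 9.52 CPM it lay between ICM 1 (6.065) and ICM 2 (12.53), with a log2 fold change of 0.19 (SE 0.37, adjusted p = 0.889). Against ICM 3 and 4, at 19.7 and 19.24 CPM, both libraries were lower.

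Between squalene and lanosterol, 1 of 3 genes rose. SQLE, the epoxidase that oxygenates squalene, was at 102.2 and 105.3 CPM against 21.1 and 34.29 CPM (log2 1.92, SE 0.28, adjusted p = 0.0404), and no other library exceeded 50.95 CPM. FDFT1, squalene synthase, was at 29.52 and 29.38 CPM against 6.147 and 12.16 CPM (log2 1.70, SE 0.34, adjusted p = 0.086), yet ICM 3 and 4 had more, 36.56 and 32.16 CPM. LSS, which closes the rings to form lanosterol, moved least of the 3, at 17.5 and 16.81 CPM against 11.37 and 10.23 CPM (log2 0.66, SE 0.40).

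All 9 genes from lanosterol to cholesterol had a log2 fold change above 0, with a median of 1.55, and 1 was called. DHCR7, a reductase of the last step, was at 104.0 and 107.7 CPM against 29.18 and 29.31 CPM (log2 1.85, SE 0.28, adjusted p = 0.0404). It is the called gene for which ICM 1 and ICM 2 were nearly equal. MSMO1, the oxidase that removes methyl groups, had the highest fold change of the list, 6.56, at 192.5 and 210.5 CPM against 16.11 and 46.65 CPM (log2 2.71, SE 0.51, adjusted p = 0.0744). TM7SF2, a sterol reductase, was at 69.74 and 71.05 CPM against 8.257 and 21.04 CPM (log2 2.29, SE 0.53, adjusted p = 0.129), but ICM 4 reached 71.94 CPM. CYP51A1, the lanosterol demethylase, had the highest CPM of the list in any library, 250.1 and 248.0 CPM, against 39.69 and 101.7 CPM in ICM 1 and 2 (log2 1.84, SE 0.42, adjusted p = 0.121). The remaining 5, NSDHL, HSD17B7, ERG28, EBP and SC5D, had log2 fold changes from 0.67 (SC5D) to 1.55 (NSDHL) and adjusted p from 0.0566 to 0.506.

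Of SREBP2 and its regulators, 0 of 4 were called, and their median of 0.73 was below that of each group of enzymes. INSIG1, the feedback target, was at 68.91 and 70.42 CPM against 12.05 and 23.44 CPM (log2 1.99, SE 0.37, adjusted p = 0.0737). SREBF2, which encodes SREBP2, was at 99.73 and 94.87 CPM against 68.25 and 34.62 CPM, below its level in WT (114.9 and 114.8 CPM). SCAP, the escort protein, was at 97.89 and 102.5 CPM against 81.53 and 50.91 CPM, and WT had 102.1 and 97.72 CPM. INSIG2 was the single gene with a fold change below 0, at 7.864 and 6.685 CPM against 18.67 and 7.167 CPM (log2 -0.87, SE 0.56, adjusted p = 0.591), a difference carried by ICM 1. Both sterol transport genes stood above both controls without being called. STARD4, a soluble sterol carrier, was at 60.39 and 63.13 CPM against 23.54 and 30.9 CPM (log2 1.19, SE 0.21, adjusted p = 0.0651), and TMEM97, a sterol-binding membrane protein, at 26.49 and 24.04 CPM against 5.881 and 13.62 CPM (log2 1.40, SE 0.42).

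**Figure D2:**
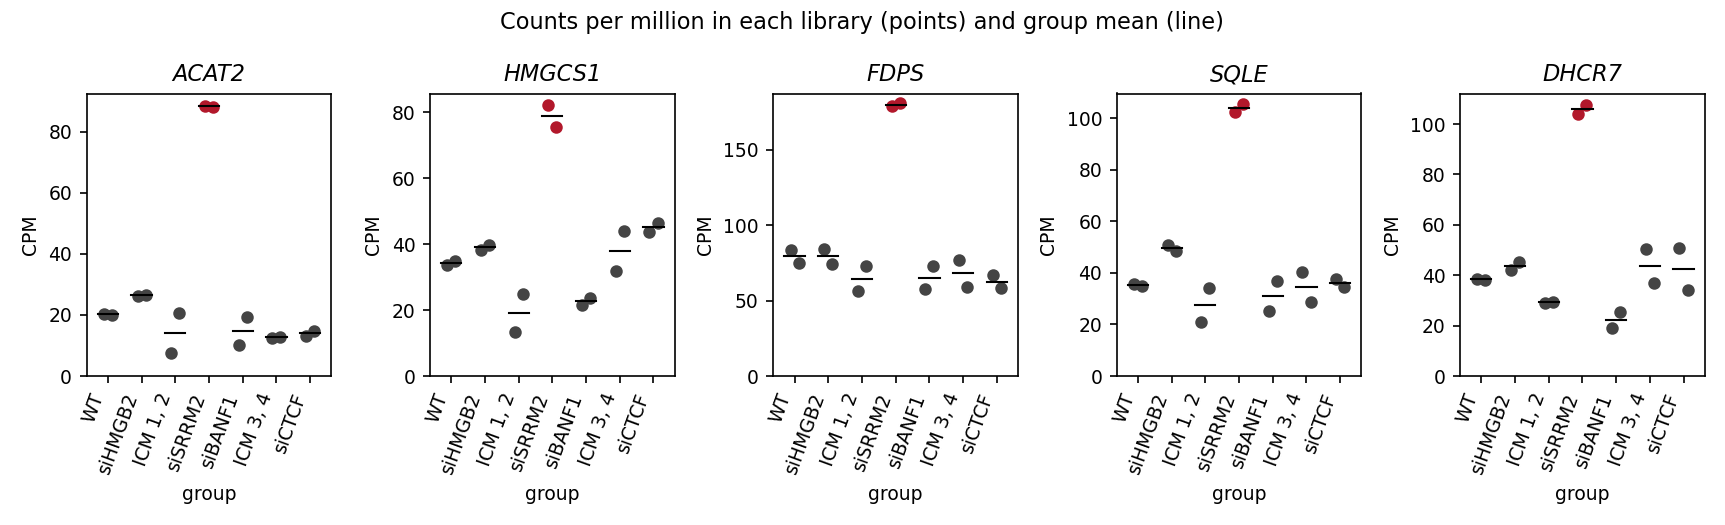
CPM (vertical axes, linear from 0) of ACAT2, HMGCS1, FDPS, SQLE and DHCR7, the genes called for the siSRRM2-labelled libraries against ICM 1 and 2, in each group; points are the 2 libraries and the line is their mean. The red points of the siSRRM2-labelled libraries lie above all other points in each panel, at 88.39 and 88.1 CPM for ACAT2 where no other library passes 26.57 CPM.

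The number of genes called depended on the fit, while the 5 called genes had a log2 fold change above 0 under all 14 alternatives. Without ICM 1 the median was 1.25 and 1 gene, HMGCS1, was called; without ICM 2 the median was 1.81 and 6 were called. No gene was called without either siSRRM2-labelled library, with the 4 compared libraries alone, with total-count scaling, or with the replicate number as a block, where adjusted p of the 5 ran from 0.0644 to 0.0665. DESeq2 called 19 (3.8% of all genes), and the fit without the siBANF1-labelled libraries, added after the data were seen, called 15 (1.13% of all genes), against 0.178% of all genes in either direction in the fit reported. With the same fit, the contrast of the siSRRM2-labelled with the siBANF1-labelled libraries, also added later, called 7 genes higher: ACAT2, HMGCS1, FDPS, SQLE, MSMO1, DHCR7 and STARD4, against 0.183% of all genes. MSMO1 had the largest difference, 10.5-fold (log2 3.40, SE 0.52, adjusted p = 0.0325), since the siBANF1-labelled pair had 8.951 and 29.44 CPM. These 2 contrasts share the siSRRM2-labelled libraries and are not independent.

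Against single ICM libraries, on CPM ratios with no test, the siSRRM2-labelled libraries 1 and 2 exceeded ICM 1 for 25 and 25 of the 26 genes, ICM 2 for 25 and 24, ICM 3 for 21 and 22, and ICM 4 for 21 and 21. The median log2 ratio was largest over ICM 1, at 1.85 and 1.93, and was 1.15 and 1.21 over ICM 2, 0.75 and 0.79 over ICM 3 and 0.81 and 0.80 over ICM 4. The median over all genes lay between -0.07 and 0.06 in these 8 ratios. ACAT2 had the highest ratio over ICM 3 and over ICM 4, at log2 2.82 and 2.77. PMVK or INSIG2 was the lowest gene in each of the 8. ICM 3 and 4 belong to the other set, so set and treatment cannot be told apart in those ratios.

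**Figure D3:**
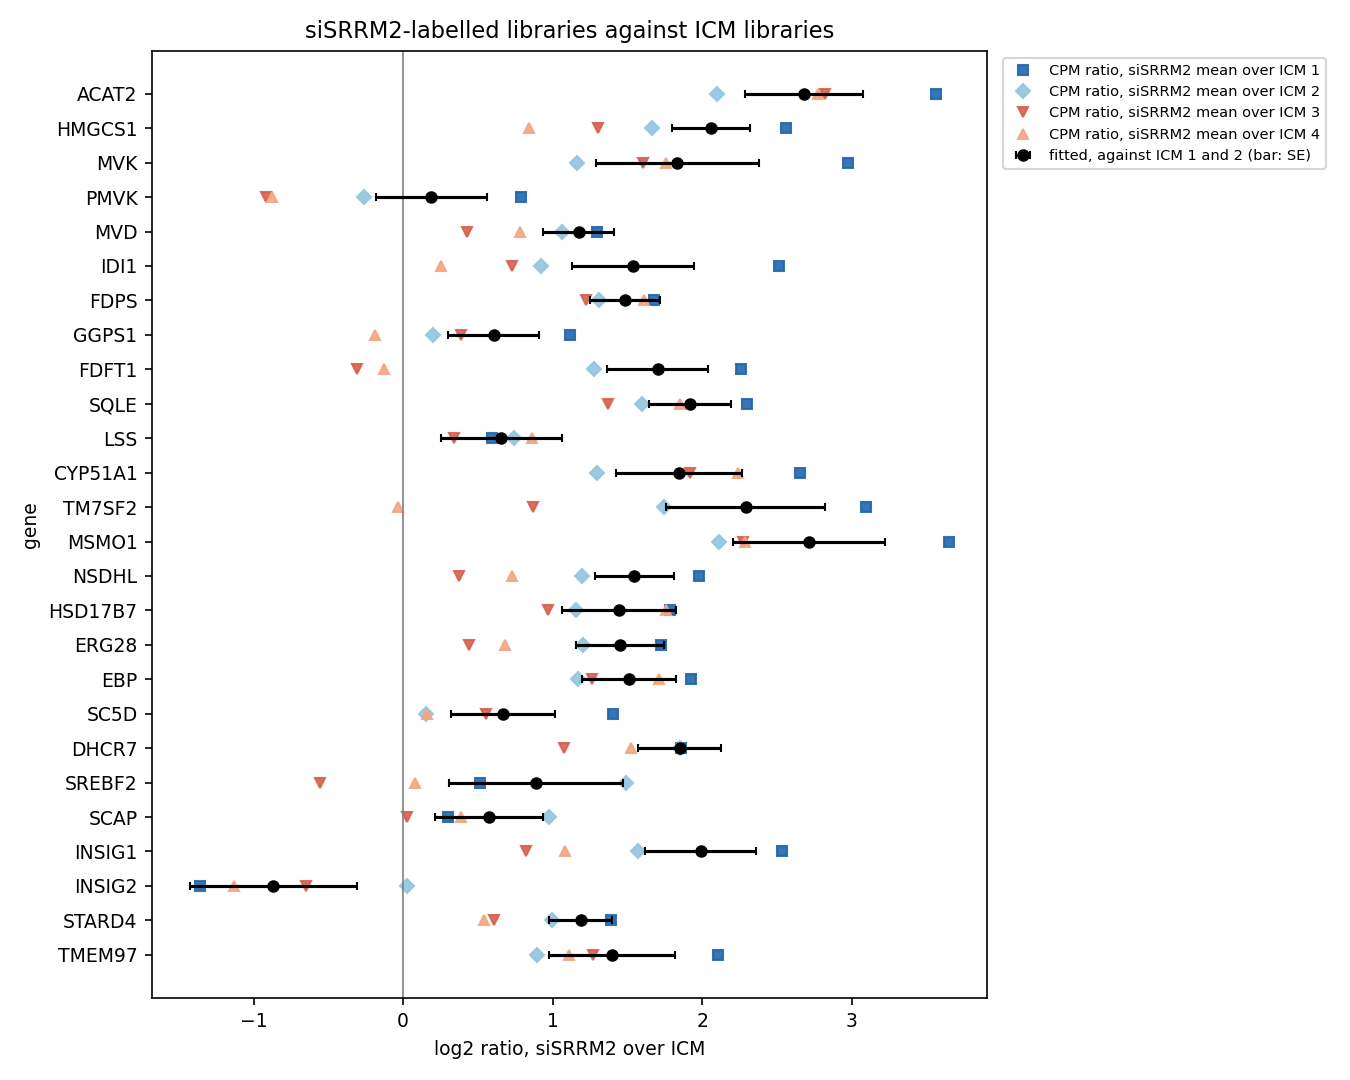
Log2 ratio (horizontal axis) of the siSRRM2-labelled libraries over ICM for each of the 26 genes; black points are fitted log2 fold changes against ICM 1 and 2 with their SE, and coloured symbols are CPM ratios of the siSRRM2 mean over each ICM library. Squares (ICM 1) lie farthest right for most genes, ACAT2 lies right of 2 against every ICM library, and PMVK and INSIG2 lie left of 0 against ICM 3 and ICM 4.

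Promoter letters are described here with no test. The list was drawn up around targets of SREBP2, so its promoter letters are not independent of that choice. Of the 26 genes, 23 had an entry in the RefSeq promoter table (GRCh38.p14), and the 250 bases before each start were searched on both strands for the sterol regulatory element TCACNCCAC, to which SREBP2 binds, for CCAAT, bound by NF-Y, and for GGGCGG, bound by SP1. ACAT2, FDFT1 and SQLE had no entry. The exact TCACNCCAC was in 1 of the 23, SREBF2, against 1.176% of 9438 protein-coding genes whose mean reached 1 CPM. In SREBF2 it read TCACCCCAC and began 133 bases before the RefSeq start. CCAAT was in 19 of the 23 (82.6%) against 42.19% of those coding genes, and GGGCGG in 22 (95.7%) against 75.97%. Windows within 1 difference of TCACNCCAC, a search added after the data were seen, were in 10 (43.5%) against 26.44%. The promoter of SREBF2 is shown for its exact match, and those of FDPS, HMGCS1 and MSMO1, chosen after their values were seen, because FDPS and HMGCS1 rose and MSMO1 had the highest fold change. Capitals mark CCAAT on either strand (ATTGG on the strand shown) and any window within 1 difference of TCACNCCAC. Each is shown 5′ to 3′ on the gene's strand, up to the base before the first exon in GENCODE v29. That exon begins upstream of the RefSeq start used in the search for each of them.
SREBF2, chr22:41832855-41833078, plus strand: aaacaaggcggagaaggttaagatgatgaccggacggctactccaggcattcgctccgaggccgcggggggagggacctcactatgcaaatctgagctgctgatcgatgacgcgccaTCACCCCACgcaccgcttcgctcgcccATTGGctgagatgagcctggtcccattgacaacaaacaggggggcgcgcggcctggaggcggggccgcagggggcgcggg
FDPS, chr1:155308616-155308747, plus strand: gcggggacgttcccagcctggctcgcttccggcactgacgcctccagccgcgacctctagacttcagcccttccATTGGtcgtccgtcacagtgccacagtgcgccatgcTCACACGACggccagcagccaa
HMGCS1, chr5:43313513-43313662, minus strand: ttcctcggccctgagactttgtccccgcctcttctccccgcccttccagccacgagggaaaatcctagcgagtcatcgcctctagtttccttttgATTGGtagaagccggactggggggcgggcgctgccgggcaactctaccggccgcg
MSMO1, chr4:165327419-165327622, plus strand: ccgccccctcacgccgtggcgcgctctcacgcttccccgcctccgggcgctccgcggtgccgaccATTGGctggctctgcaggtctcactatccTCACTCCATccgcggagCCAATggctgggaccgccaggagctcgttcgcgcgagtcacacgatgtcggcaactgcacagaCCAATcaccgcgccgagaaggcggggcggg

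In SREBF2 the element lies upstream of 1 CCAAT box, and in MSMO1 the near match TCACTCCAT lies between 2 of the 3 boxes shown. In FDPS the near match TCACACGAC lies between 2, the second of which starts 122 bases before the RefSeq start and is cut by the end of the sequence shown. Boxes past the end of a sequence are not shown, such as the second of HMGCS1, 100 bases before a RefSeq start. The 4 genes without CCAAT in the window are CYP51A1, SCAP, PMVK and INSIG2. Their log2 fold changes for the siSRRM2-labelled libraries against ICM 1 and 2 were 1.84, 0.57, 0.19 and -0.87. Whether these letters go with the fold changes was not tested. A match is a description of letters, and its absence says only that these letters are not in this window.

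In the comparison of ICM 1 and 2 with WT, 2 genes fell and none was called higher. FDFT1 was at 6.147 and 12.16 CPM in ICM 1 and 2 against 22.41 and 18.96 CPM in WT (log2 -1.33, SE 0.34, adjusted p = 0.0274). HMGCS1 was at 13.4 and 24.89 CPM against 33.82 and 34.95 CPM (log2 -0.999, SE 0.25, adjusted p = 0.0287). Of all genes, 6.63% were called higher and 6.87% lower, so 2 of 26 is near the background. The median of the list was -0.44 beside 0.10 for all genes, with 21 of 26 below 0. The libraries did not overlap for 11 genes lower and 1 higher, TM7SF2, against 25.0% of all genes lower and 32.3% higher. The highest fold changes were those of TM7SF2 (1.08, SE 0.52), MVK (0.68, SE 0.53) and CYP51A1 (0.51, SE 0.41), and SREBF2 was among the lowest at -1.27 (SE 0.59, adjusted p = 0.172). MVK and CYP51A1 were below WT in ICM 1 and above it in ICM 2, and their sign turned without ICM 2. Without ICM 1 no gene was called and the median was -0.17. Small RNA genes took 6.06% and 3.19% of the counts in ICM 1 and 2 and 0.00823% and 0.00835% in WT, and their part in these differences was not tested.

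ICM 3 and 4 differed from WT in another way. TM7SF2 rose from 7.3 and 5.103 CPM in WT to 38.53 and 71.94 CPM (log2 2.90, SE 0.55, adjusted p = 0.0047), and it was the only gene of the list called. Across the series TM7SF2 was lowest in WT and siHMGB2, at 4.615 to 7.3 CPM, and at 38.53 to 71.94 CPM in ICM 3 and 4, siCTCF and the libraries labelled siSRRM2. Of all genes, 14.3% were called higher and 16.0% lower, so 1 of 26 is a share below the background. The median was 0.09 beside -0.02 for all genes. The libraries did not overlap for 15 genes higher and 3 lower (ACAT2, LSS and TMEM97), against 42.6% and 33.3% of all genes. IDI1 was at 92.36 and 128.1 CPM against 49.73 and 47.57 CPM (log2 0.93, SE 0.41, adjusted p = 0.102), MVK at 10.88 and 9.775 against 5.214 and 5.267 CPM, and ACAT2 at 12.51 and 12.93 against 20.32 and 20.03 CPM (log2 -0.91, SE 0.38, adjusted p = 0.0899). With the compared libraries alone IDI1, MVK, SC5D, ACAT2 and TM7SF2 were called, the first 3 and TM7SF2 higher and ACAT2 lower, where 47.0% of all genes were called.

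Set against each other within the same fit, ICM 3 and 4 were above ICM 1 and 2 past the threshold for 4 genes, FDFT1, TM7SF2, NSDHL and HMGCS1, where 8.53% of all genes were called higher. FDFT1 differed most, 3.55-fold. Library composition differed between these pairs as well: small RNA genes took 3.19% to 6.06% of the counts in ICM 1 and 2 and in the libraries labelled siSRRM2 and siBANF1, and 0.00522% to 0.00835% in the other 8, which include WT and siHMGB2 of the first set. Set and composition cannot be told apart in the contrast of ICM 3 and 4 with ICM 1 and 2. Among the ICM-treated libraries of the first set, the siSRRM2-labelled pair had 5.11% and 5.77% small RNA, with sums of the 26 genes of 2001 and 2033 CPM. ICM 1 and 2 had 6.06% and 3.19%, with sums of 574.6 and 859.0 CPM. The siBANF1-labelled pair had 4.501% and 3.94%, with sums of 726.1 and 858.1 CPM. The part of small RNA in these sums was not tested.

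With knockdown of HMGB2 in untreated cells, the list summed to levels close to WT. The 26 genes summed to 856.0 and 850.3 CPM against 875.5 and 833.4 CPM, with a median log2 fold change of 0.06 beside 0.00 for all genes. No gene of the list was called by edgeR, which called 0.0% of all genes, or by DESeq2, which called 0.382%. At an unadjusted p under 0.05 in the edgeR test there were 0 of the 26 genes and 908 of all genes (4.75%). The libraries did not overlap for 8 genes higher and 8 lower, against 19.7% and 29.3% of all genes. MSMO1 was at 51.03 and 48.48 CPM against 35.25 and 32.78 CPM (log2 0.60, SE 0.48), SQLE at 50.95 and 48.48 against 35.7 and 34.95 CPM (log2 0.55, SE 0.27) and MVK at 7.083 and 7.384 against 5.214 and 5.267 CPM (log2 0.52, SE 0.54). HSD17B7, a ketosteroid reductase, was at 4.794 and 4.421 CPM against 7.658 and 8.066 CPM (log2 -0.72, SE 0.38), SC5D, the desaturase, at 31.78 and 26.18 against 44.54 and 42.5 CPM (log2 -0.53, SE 0.35), and FDFT1 at 16.45 and 13.36 against 22.41 and 18.96 CPM (log2 -0.42, SE 0.33). With the 4 compared libraries alone, which are closer to each other than the ICM replicates whose spread enters the shared fit, 6 genes were called, where 10.7% of all genes were: ACAT2, CYP51A1, MSMO1 and SQLE higher and HSD17B7 and SC5D lower.

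The libraries labelled siBANF1 followed the ICM library of the same number. The fitted comparison with ICM 1 and 2 called no gene of the list by edgeR, with 0.0% of all genes called, or by DESeq2, with 0.0889%. At an unadjusted p under 0.05 in the edgeR test there were 1 of the 26 genes and 591 of all genes (3.09%). The median was 0.15 beside 0.03, but it was -0.12 without ICM 1, 0.58 without ICM 2, 0.37 without siBANF1 1 and -0.24 without siBANF1 2, with 7 to 22 of the 26 genes above 0. The libraries did not overlap for LSS and INSIG1 higher and DHCR7 and STARD4 lower, against 6.24% and 8.22% of all genes. INSIG1 was at 49.19 and 27.65 CPM against 12.05 and 23.44 CPM (log2 1.19, SE 0.36, adjusted p = 1.0). MSMO1 was at 8.951 and 29.44 CPM against 16.11 and 46.65 CPM (log2 -0.68, SE 0.48), below the ICM library of its number in both. SREBF2 was at 124.4 and 31.91 CPM against 68.25 and 34.62 CPM, so its fitted 0.66 (SE 0.58) came from replicate 1. Library by library, the median log2 ratio was 0.21 for siBANF1 1 over ICM 1 and 0.04 for siBANF1 2 over ICM 2, with the 26 genes of the latter pair between -0.75 (INSIG2) and 0.32 (TMEM97). Across numbers it was -0.57 for siBANF1 1 over ICM 2 and 0.86 for siBANF1 2 over ICM 1.

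Knockdown of CTCF in ICM-treated cells gave the narrowest span of fold changes of the 6 comparisons with an ICM or WT control. No gene of the list was called by edgeR or by DESeq2, each of which called 0.0% of all genes. At an unadjusted p under 0.05 in the edgeR test there were 0 of the 26 genes and 125 of all genes (0.654%). The log2 fold changes ran from -0.19 (LSS) to 0.25 (HMGCS1) with a median of 0.06 beside -0.01. The libraries did not overlap for ACAT2, MVK, SC5D and STARD4 higher and PMVK lower, against 7.52% and 9.55% of all genes. HMGCS1 was at 43.7 and 46.6 CPM against 31.96 and 43.99 CPM (SE 0.25), GGPS1 at 57.35 and 71.62 against 44.47 and 66.34 CPM (log2 0.22, SE 0.30) and SC5D at 82.91 and 82.42 against 62.45 and 82.03 CPM (log2 0.20, SE 0.35). TMEM97 (-0.13, SE 0.42) and SCAP (-0.14, SE 0.36) were the other lowest genes, each with a fold change smaller than its SE. In siCTCF 2, where CTCF itself was lowest, the median log2 ratio over ICM 4 was 0.06, and in siCTCF 1 over ICM 3 it was -0.01. Against ICM 1 the siCTCF libraries were higher for 25 and 23 of the 26, a comparison across sets.

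**Figure D4:**
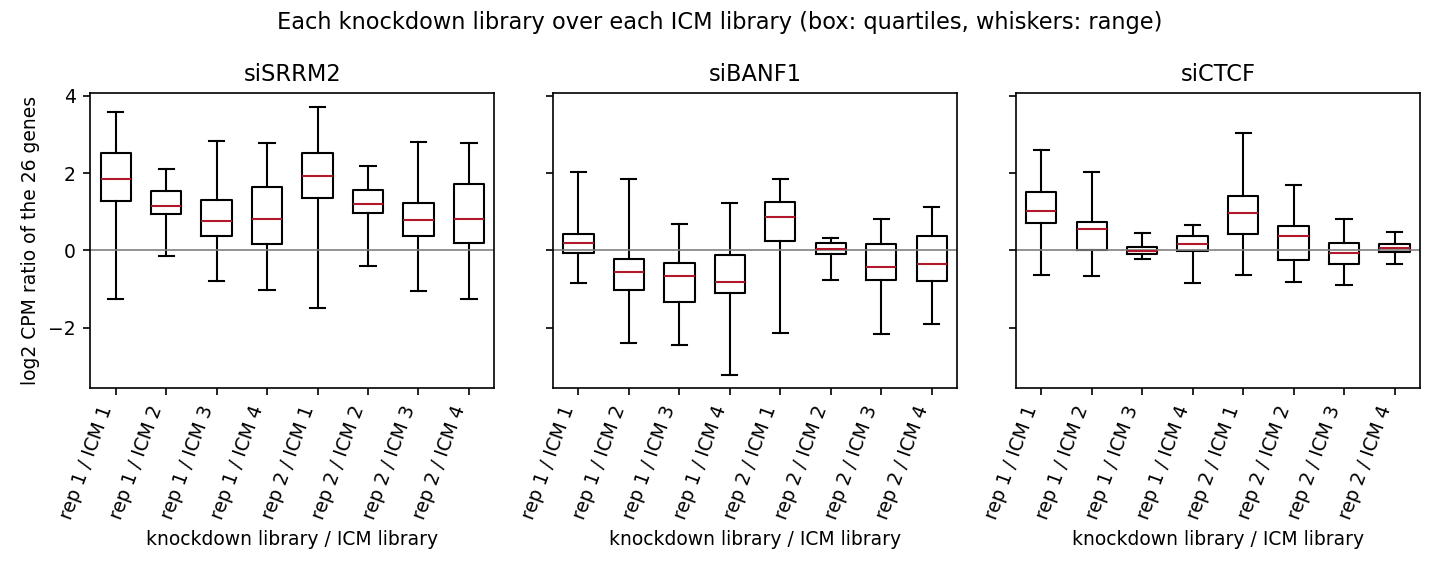
Log2 CPM ratios of the 26 genes (vertical axis) for each knockdown library over each of the 4 ICM libraries (horizontal axis), in a panel per knockdown label; red lines are medians, boxes quartiles and whiskers the full range. All 8 medians of siSRRM2-labelled libraries are above 0, from 0.75 to 1.93, while siBANF1 2 over ICM 2 and siCTCF 2 over ICM 4 have medians of 0.04 and 0.06.

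Levels per kilobase of merged exon allow genes to be set beside each other. In WT, FDPS stood highest at 48.1 CPM per kilobase, followed by SCAP at 21.97 and SREBF2 at 21.4, and MVK was lowest at 1.782. In the libraries labelled siSRRM2, FDPS was again highest at 109.2 CPM per kilobase, followed by MSMO1 at 79.54 and CYP51A1 at 74.38, and INSIG2 was lowest at 2.808. MSMO1 and CYP51A1, at 13.42 and 13.23 in WT, were below SREBF2 and SCAP there and above both in the siSRRM2-labelled libraries, where SREBF2 was at 18.13 and SCAP at 22.04 CPM per kilobase.

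The span between the highest and lowest library of the series ran from 2.01-fold for SCAP to 23.5-fold for MSMO1. TM7SF2 followed with 15.6-fold and ACAT2 with 11.8-fold. For GGPS1, SCAP and INSIG2 no neighbouring groups in the order of means were free of overlap, though some groups farther apart in it were. In the siSRRM2-labelled libraries GGPS1 (57.94 and 58.65 CPM) lay above ICM 1 and 2 (26.92 and 50.65). SCAP there (97.89 and 102.5) also lay above ICM 1 and 2 (81.53 and 50.91). INSIG2 there (7.864 and 6.685) lay below WT (15.32 and 12.1). PMVK and SREBF2 were highest in ICM 3 and 4, GGPS1 and FDFT1 in siCTCF, and INSIG2 in siHMGB2.

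ACAT2 shares exon bases with genes on the opposite strand, 34.8% of its merged exon length with SOD2 and 12.5% with TCP1, and whether counting used strand is not given in the sources used here. SOD2 was at 838.4 and 842.2 CPM in the siSRRM2-labelled libraries, and at 1911 and 315.3 CPM in ICM 1 and 2. TCP1 was at 397.6 and 398.4 CPM in the siSRRM2-labelled libraries, and at 179.6 and 460.0 CPM in ICM 1 and 2. The part of reads from these genes in the ACAT2 counts was not tested. FDPS shares 28.9% with the antisense gene RUSC1-AS1, which had 3.009 CPM in WT 1. IDI1, FDPS, CYP51A1, HSD17B7 and TMEM97 have listed pseudogenes, none above 1.276 CPM in any library.

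Genes of neighbouring pathways gave 2 calls in the siSRRM2-labelled libraries against ICM 1 and 2. Of 11 tested genes of fatty acid synthesis, the program of the related factor SREBP1, 0 were called and the median log2 fold change was 0.37. Of 8 targets of LXR, the receptors that answer to oxysterols, 2 were above 0 and the median was -0.79. Among them MYLIP, a ubiquitin ligase that LXR induces, fell to 6.381 and 6.015 CPM from 19.85 and 29.68 CPM (log2 -1.99, SE 0.31, adjusted p = 0.0425), and NR1H3, which encodes LXR alpha, rose to 27.3 and 27.93 CPM from 5.799 and 6.338 CPM (log2 2.18, SE 0.31, adjusted p = 0.0404). In 11 genes of isoprenoid use, 10 of SREBP cleavage and degradation, and 13 of sterol trafficking and storage, 0 were called and the medians were -0.28, -0.10 and -0.18. SREBF1, which encodes SREBP1 and was chosen after its values were seen, was at 14.87 and 13.09 CPM against 30.55 and 29.31 CPM.

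The same lists had other calls where the drug was compared with WT. In ICM 1 and 2, FADS2, a fatty acid desaturase, fell (log2 -1.39, SE 0.37) and NUS1, a subunit of the dolichol synthase, fell (-1.05, SE 0.28), while NPC1, the lysosomal cholesterol exporter, rose (1.28, SE 0.37). FBXW7 (1.31) and FNTB (3.48, from 0.0894 and 0.0823 CPM in WT to 0.779 and 1.42 CPM) were also called there. In ICM 3 and 4, 4 of the 8 LXR targets fell: ABCG1 (log2 -3.04, SE 0.54), ABCA1 (-2.41, SE 0.77), SMPDL3A (-2.21, SE 0.36) and RNF145 (-1.53, SE 0.42). Their median over all 8 was -1.22. ABCA1, the exporter of cellular cholesterol, was at 24.09 and 61.69 CPM against 169.2 and 210.5 CPM in WT. ICM 1 had 693.5 CPM and ICM 2, with 176.6, lay within the WT range. In that comparison 2 of 11 genes of fatty acid synthesis rose, LPIN1 (1.62, SE 0.46) and ACSS2 (0.73, SE 0.21). No gene of these 5 lists was called for siHMGB2, siBANF1 or siCTCF.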

How the data were processed

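RNA-seq libraries of IMR90 cells were made with a TruSeq kit and sequenced in pairs of reads, per the labels' protocols. The deposited values are raw counts per gene symbol, 1 table per library, made by the authors. The submitters' processing notes name STAR 2.7.3a, HTSeq 0.12.4, DESeq2 1.36.0 and the build hg38, and the annotation and strand setting are not given in the sources used here. The 5 closing lines that name no gene held 12.75% to 41.78% of all counts in a library, genes and closing lines together, and were left out. CPM was computed from the remaining totals. Libraries were grouped by their labels.

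Comparisons used edgeR 4.0.16 in R 4.3.3: trimmed mean scaling (TMM), filterByExpr, 1 fit of all 14 libraries with a mean per group, and quasi-likelihood F-tests with Benjamini-Hochberg adjustment over 19126 genes, called below 0.05. SE is the absolute log2 fold change over the root of F. The fit was tested on simulated data. Alternatives were other scalings, no filter, DESeq2 1.42.0, the compared libraries alone, each library left out, other ICM controls and a replicate block. All 26 genes are given, and for each comparison the genes called and the 3 highest and 3 lowest fold changes are named; from the pathway lists at most 4 called genes are named. The genes, lists and tests were chosen with earlier results of these data known.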

Additional observations from a re-analysis of the deposited data

Results flagged for a closer look

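The effect of ICM against WT differed between the first and the second set for 4 genes by a test of the difference itself, which, with WT shared, is the contrast of ICM 3 and 4 with ICM 1 and 2 in the edgeR fit. The difference of log2 fold changes was 1.83 for FDFT1 (SE 0.34, adjusted p = 0.00604), 1.82 for TM7SF2 (SE 0.52, adjusted p = 0.0343), 0.91 for NSDHL (SE 0.26, adjusted p = 0.0347) and 0.89 for HMGCS1 (SE 0.25, adjusted p = 0.0329). All 4 were higher in both ICM libraries of the second set than in either of the first. They were picked by this same contrast, so that order adds no support. It held for 12 of the 26 genes, with 0 in the opposite order. Of all genes tested, 8.53% were called higher in the contrast, so calls were not particular to the list. Set and treatment batch cannot be told apart in this contrast.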

How the results depend on the processing

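Over 2 libraries a group, most counts of calls moved with the fit; where no construction shows it, the cause was not tested. Total-count scaling moved the median of all genes from 0.10 to 0.24 for ICM 1-2 vs WT and from -0.02 to 0.18 for ICM 3-4 vs WT. In what follows the share of all genes called stands in parentheses after a count of calls. It called 0 genes of the list for ICM 1-2 (13.7%) and 0 for siSRRM2 (0.00523%), and its median was 0.32 for ICM 3-4. The compared libraries alone called 0 for ICM 1-2 (0.173%), 5 for ICM 3-4 (47.0%), 6 for siHMGB2 (10.7%) and 0 for siSRRM2 (0.0%). For siSRRM2, no filter called 18 (2.41%) and DESeq2 19 (3.8%). Fits without siBANF1 libraries called 4 for ICM 1-2 (20.1%) and 15 for siSRRM2 (1.13%), and without the ICM 1-2 and siBANF1 libraries 7 for ICM 3-4 (54.8%); both were added after the data were seen. Leaving out each library in turn, the calls ran from 0 to 3 for ICM 1-2 (2.85% to 18.9%), 0 to 1 for ICM 3-4 (10.0% to 13.6%; 0 without WT 2) and 0 to 6 for siSRRM2 (0.00523% to 0.246%), and medians from -0.0619 to 0.24 for ICM 3-4, -0.0262 to 0.10 for siHMGB2, 1.25 to 1.81 for siSRRM2, -0.24 to 0.58 for siBANF1 and -0.11 to 0.16 for siCTCF. Against other ICM libraries, siSRRM2 had a median of 0.68 with 11 called (22.4%) against ICM 3-4, 0.81 (ICM 3 alone) and 0.97 (ICM 4 alone); siBANF1 had 2 called (15.8%) against ICM 3-4 and 1 (5.37%) with a median of -0.34 against ICM 3 alone; siCTCF had a median of 0.43 with 4 called (18.6%) against ICM 1-2, 0.73 with 10 (31.6%) against ICM 1 alone and 0.48 with 1 (6.7%) against ICM 2 alone. Signs turned when a library was left out for MVK (-0.38 to 1.29) and CYP51A1 (-0.22 to 0.99) in ICM 1-2 vs WT, negative without ICM 2. For siSRRM2 they turned without ICM 1 for INSIG2 (-1.44 to 0.0909) and PMVK (-0.19 to 0.71), and for PMVK against ICM 3-4 (-0.80), ICM 3 (-0.87) and ICM 4 (-0.72). For siBANF1 they turned for INSIG2 (-1.68 to 0.39), positive without ICM 1 (0.39) or siBANF1 2 (0.064), for MSMO1 (-1.66 to 0.17), positive without ICM 2, and for SREBF2 (-0.76 to 1.36), negative without siBANF1 1 and against ICM 3 (-0.77) or ICM 3-4 (-0.42). For siCTCF they turned without ICM 3 or siCTCF 2 for LSS (-0.72 to 0.20) and SCAP (-0.37 to 0.12), and with another control for SCAP (ICM 2, 0.62; ICM 1-2, 0.14), SC5D (ICM 2, -0.0309) and TMEM97 (ICM 1, 0.60). The labels do not say whether libraries with the same replicate number were paired. Same-numbered deviations correlated at -0.08 (ICM 1-2 with WT), 0.06 (siHMGB2 with WT), -0.00104 (siSRRM2 with ICM) and 0.81 (siBANF1 with ICM), and with a replicate block 0 genes were called for siSRRM2 (0.00523%; median 1.51), 2 for ICM 1-2 (11.4%; median -0.47), 0 for siHMGB2 (0.0%) and 0 for siBANF1 (0.131%). No paired analysis was possible for siCTCF because the labels give it no replicate number in common with ICM 3-4. Each gene of the list had at least 175 counts in every library, and the part of depth in the calls was not tested.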
